A study of Mus musculus with 3 samples.

Results

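Some of the youngest gene families of the mouse lie in large clusters of KRAB zinc finger protein (KZFP) genes. A KZFP binds DNA through a row of C2H2 zinc fingers, and its KRAB domain recruits the co-repressor TRIM28, with which the histone methyltransferase SETDB1 works to silence the bound site. Many KZFPs bind retrotransposons, and the clusters grow by duplication, so that their genes can be nearly identical. The clusters on chromosomes 2, 4 and 13 were examined here at chr2:175000001-178000000, chr4:145000001-148000000 and chr13:65000001-68000000 (mm10).

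DNA methylation had been measured by whole-genome bisulfite shotgun sequencing in spermatogonia, the germ cells of the early postnatal testis, of C57BL6/J mice at postnatal day 7. The cells had been sorted with an antibody to EpCAM. The 3 libraries came from WT, *Pld6* KO and *Dnmt3l* KO mice (the last is spelled Dnmt3L KO in the labels), 1 library each. PLD6 is needed to make piRNAs, the small RNAs that guide silencing of retrotransposons in male germ cells, and DNMT3L is the cofactor of the *de novo* DNA methyltransferases. Both KO lines carry the mutation in the whole animal and had been backcrossed to C57BL/6J, and the study's WT animals included heterozygous mice of both lines. Which of these the WT library holds is not given in the sources used here.

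Each cluster gave 300 adjoining windows of 10 kb without overlap. A window was used where it held at least 10 CpG calls in each library, a call being 1 read of 1 CpG site as methylated or unmethylated. This left 526 of the 900 windows, 58.4% of them, out of 248497 windows of the genome. The cluster on chromosome 2 kept 81 windows, that on chromosome 4 kept 200 and that on chromosome 13 kept 245. The comparison regions were the 3 Mb on each side of each cluster, called flanks, of which 1789 of 1800 windows were used. The 24 windows just inside the minimum, with 10 or 11 calls in the shallowest library, had levels of 0.712 in WT, 0.696 in *Pld6* KO and 0.303 in the *Dnmt3l* KO library, and the 23 windows just outside, with 8 or 9, had 0.777, 0.691 and 0.248. In the clusters, 261 windows lacked a call in at least 1 library.

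The sequences that carry the results are gene starts, a finger exon and a stretch that fell in *Pld6* KO. They are printed 5′ to 3′ in lower case from RefSeq or its genome (GRCm38.p6, the assembly that mm10 names), with every CpG in capitals. The first ones are 300 bases around the start of 3 KZFP genes: *Zfp748*, whose start was free of methylation in WT, *Zfp982*, whose start was methylated in WT, and *Gm4724*, whose start held no call. *Zfp748* lies on the minus strand (chr13:67553103-67553402), *Zfp982* on the plus strand (chr4:147500436-147500735) and *Gm4724* on the minus strand (chr2:175435728-175436027).
Zfp748 start: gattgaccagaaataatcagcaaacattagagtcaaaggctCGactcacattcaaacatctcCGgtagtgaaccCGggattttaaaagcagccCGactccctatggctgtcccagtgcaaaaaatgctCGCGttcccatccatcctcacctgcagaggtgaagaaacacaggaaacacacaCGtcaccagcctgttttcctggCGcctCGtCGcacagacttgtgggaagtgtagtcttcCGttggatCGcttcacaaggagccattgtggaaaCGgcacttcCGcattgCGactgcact
Zfp982 start: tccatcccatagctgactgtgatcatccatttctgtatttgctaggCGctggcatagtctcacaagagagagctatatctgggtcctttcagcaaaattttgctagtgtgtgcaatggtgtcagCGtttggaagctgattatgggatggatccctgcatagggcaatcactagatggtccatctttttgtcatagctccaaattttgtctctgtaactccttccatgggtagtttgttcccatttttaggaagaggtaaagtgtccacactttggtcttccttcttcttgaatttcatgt
Gm4724 start: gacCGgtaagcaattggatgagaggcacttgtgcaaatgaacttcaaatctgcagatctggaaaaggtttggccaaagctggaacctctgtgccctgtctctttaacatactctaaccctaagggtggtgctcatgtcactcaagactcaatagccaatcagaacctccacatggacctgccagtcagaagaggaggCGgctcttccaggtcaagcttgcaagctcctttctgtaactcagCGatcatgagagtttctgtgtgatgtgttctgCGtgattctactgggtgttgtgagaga

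The stretch of *Zfp748* holds 15 CpG sites and those of *Zfp982* and *Gm4724* hold 2 and 4. All 65 WT calls in the *Zfp748* stretch were unmethylated, as were all 79 in *Pld6* KO and all 4 in *Dnmt3l* KO. In the *Zfp982* stretch the level was 0.833 in WT (6 calls), 0.933 in *Pld6* KO (15 calls) and 0 in the *Dnmt3l* KO library (10 calls). The next sequence comes from the last coding exon of *Zfp748* (chr13:67541141-67541392, minus strand), which encodes its zinc fingers, and is the stretch with the most CpG sites in that exon.
Zfp748 finger exon: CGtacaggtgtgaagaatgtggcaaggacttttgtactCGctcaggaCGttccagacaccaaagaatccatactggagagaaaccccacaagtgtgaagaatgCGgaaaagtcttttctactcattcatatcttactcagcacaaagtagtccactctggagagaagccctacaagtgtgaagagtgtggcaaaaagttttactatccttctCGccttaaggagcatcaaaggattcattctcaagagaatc

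All 13 WT calls and all 8 *Pld6* KO calls in this stretch were methylated, and the level was 0.429 in *Dnmt3l* KO (7 calls). The start and the finger exon of the same gene thus stood at opposite ends of the scale in WT. The last sequence (chr2:177094240-177094539, plus strand) is the most densely called stretch of the window with the largest decrease in *Pld6* KO. It overlaps no annotated coding gene and holds 19 CpG sites.
Chromosome 2 stretch: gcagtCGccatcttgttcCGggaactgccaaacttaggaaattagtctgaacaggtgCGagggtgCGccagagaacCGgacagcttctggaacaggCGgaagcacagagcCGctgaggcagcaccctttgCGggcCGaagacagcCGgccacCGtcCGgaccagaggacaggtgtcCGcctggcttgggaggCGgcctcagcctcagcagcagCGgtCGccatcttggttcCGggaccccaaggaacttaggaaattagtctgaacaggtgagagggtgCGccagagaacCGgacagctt

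Its level was 0.868 in WT (38 calls), 0.132 in *Pld6* KO (68 calls) and 0.167 in the *Dnmt3l* KO library (36 calls). A level, here and below, is the share of methylated calls among the calls of a stretch, and its 95% Wilson interval is given where the comparison turns on it. Intervals and tests cover counting error only, and since calls of the same read are linked they can be too narrow. Each genotype has 1 library, so genotype and library cannot be told apart in any comparison between them.

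How much of each cluster could be measured differed widely. The chromosome 2 cluster had 0.299 calls per CpG site in WT, 0.412 in *Pld6* KO and 0.152 in the *Dnmt3l* KO library. Its flanks had 2.44, 3.70 and 1.02, so that the cluster had 0.123 of the flanks' depth in WT, 0.111 in *Pld6* KO and 0.148 in the *Dnmt3l* KO library. The chromosome 4 cluster reached 0.769 of its flanks' depth in WT and the chromosome 13 cluster 0.615. At least 1 WT call covered 12.8% of the CpG sites of the chromosome 2 cluster, 46.9% of those on chromosome 4 and 44.3% of those on chromosome 13, against 79.6%, 73.9% and 66.9% in the respective flanks. Gaps in the assembly took up 15% of the chromosome 2 cluster and 14.4% of that on chromosome 4, and none of that on chromosome 13.

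The depth followed the duplication of the sequence. For each CpG site the surrounding 79 bases, the length of a read after trimming, were searched for a second exact copy within the same cluster on either strand. Such a copy was found for 78.4% of the sites on chromosome 2, 35.6% on chromosome 4 and 30.3% on chromosome 13, and for 0.347% to 6.69% of the sites in the 6 flanks. Duplicated sites of the chromosome 2 cluster had a WT call in 2.38% of cases and sites with a single copy in 50.5%. The corresponding shares were 7.18% and 68.8% on chromosome 4, and 7.69% and 60.2% on chromosome 13. The files hold uniquely mapped reads, so the levels below describe mainly the parts of the clusters that are not duplicated exactly.

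**Figure D1:**
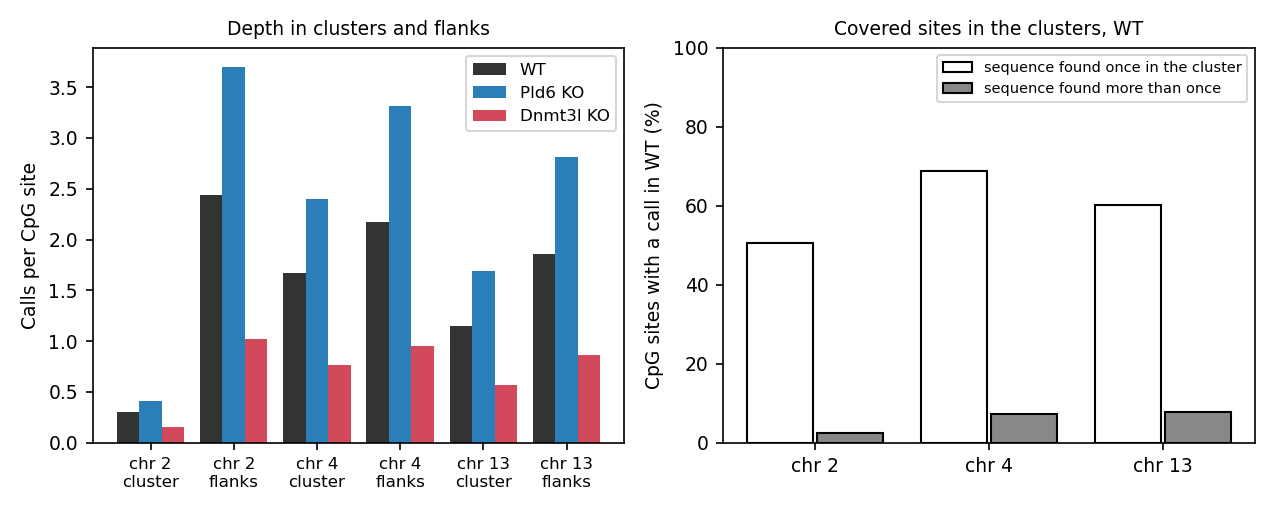
Left, calls per CpG site (bars) in each cluster and its flanks for the 3 libraries. Right, the percentage of CpG sites with at least 1 WT call, for sites whose surrounding 79 bases occur once (white) or more than once (grey) in the cluster. The chromosome 2 cluster has the lowest depth, 0.299 calls per site in WT against 2.44 in its flanks.

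In WT, the clusters on chromosomes 4 and 13 were less methylated than the sequence around them, and that on chromosome 2 was not. The pooled level of the chromosome 13 cluster was 0.595 (95% interval 0.589 to 0.601), lower than its flanks by 0.125 (interval of the difference −0.132 to −0.118). The chromosome 4 cluster had 0.661 (0.656 to 0.666) against 0.716 in its flanks, a difference of −0.0555 (−0.0610 to −0.0500, adjusted p = 1.76e-90, two-sided Fisher's exact test). The chromosome 2 cluster had 0.740 against 0.737, a difference of 0.00241 (−0.0110 to 0.0154, adjusted p = 0.728, two-sided Fisher's exact test). The p-values were adjusted over the 9 tests of 3 clusters in 3 libraries, and that of the chromosome 13 cluster in WT was too small for the software to represent. Against flanks of only 1 Mb on each side, the WT differences were smaller, −0.0159 on chromosome 4 and −0.0873 on chromosome 13. The absence of a difference on chromosome 2 depended on the windows compared: with windows limited to a GC content of 38% to 42%, the WT cluster was lower by 0.125 than its flanks, and outside soft-masked repeats by 0.0945.

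Lowly methylated windows were more frequent in the chromosome 4 and 13 clusters. Of the 526 windows 64 had a WT level under 0.4, which is 12.2% of them, against 5.81% of the flank windows and 5.79% of all windows of the genome. They made up 14.3% of the windows on chromosome 13 (35 windows), 12.5% on chromosome 4 (25 windows) and 4.94% on chromosome 2 (4 windows). The median window was methylated at 0.742 on chromosome 13, 0.760 on chromosome 4 and 0.837 on chromosome 2 in WT. The 10th and 90th percentiles of the windows were 0.322 and 0.914 on chromosome 13, 0.332 and 0.904 on chromosome 4, and 0.548 and 0.944 on chromosome 2. The distributions of cluster and flank windows therefore overlapped in every cluster.

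**Figure D2:**
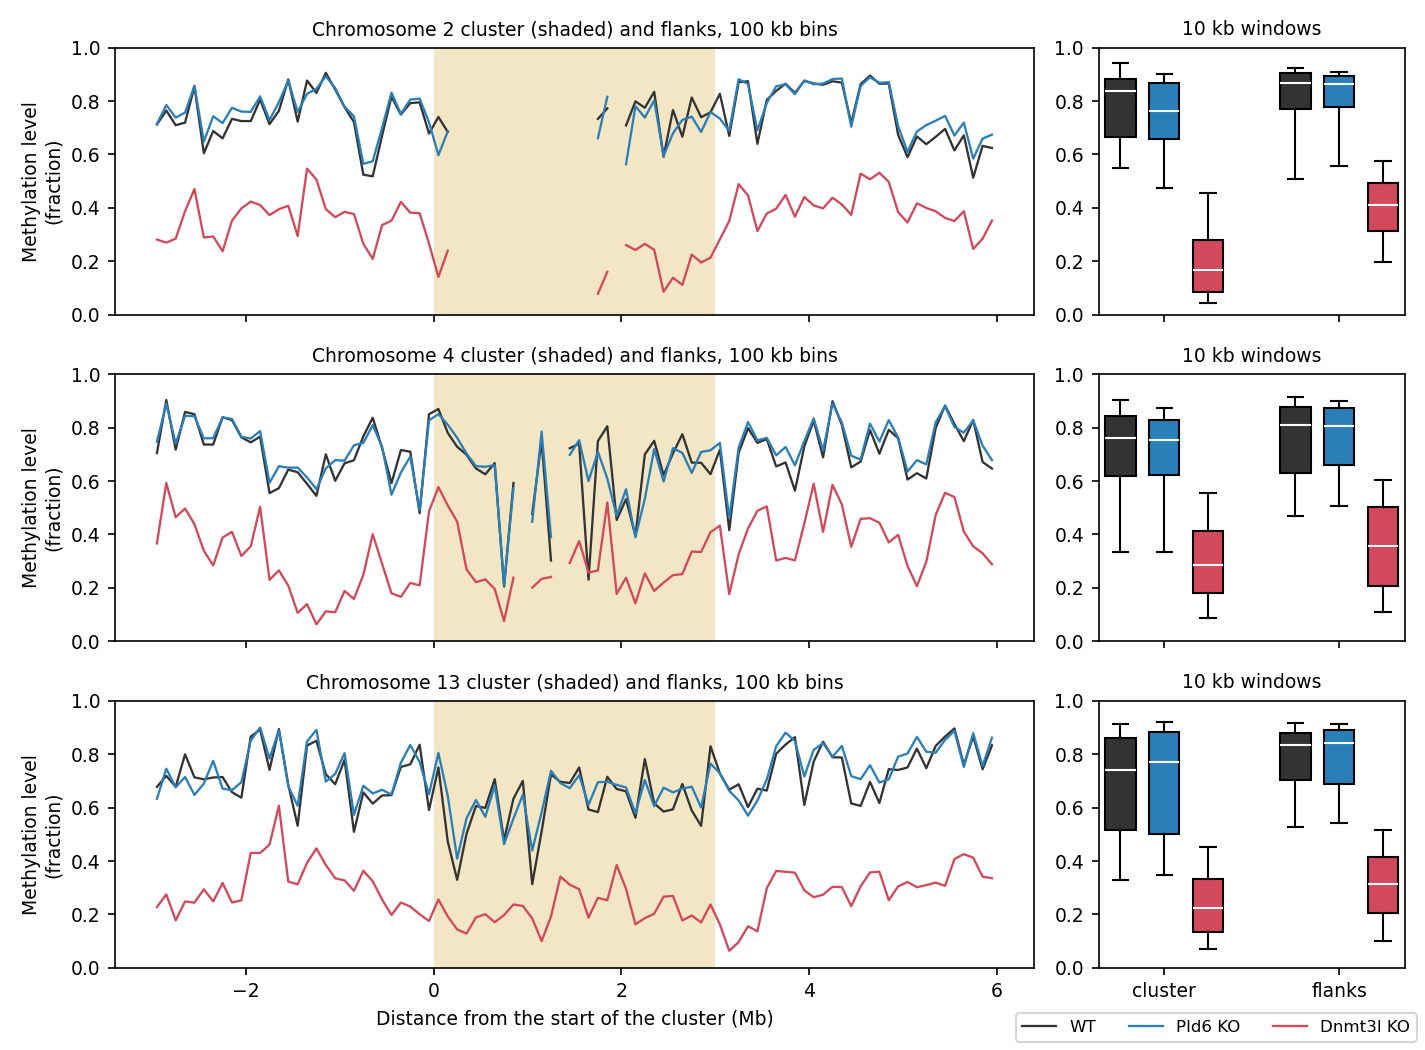
Left, methylation level (fraction, pooled over 100 kb bins with at least 10 calls) against the distance in Mb from the start of each cluster, with the cluster shaded. Right, levels of the 10 kb windows, with boxes from the first to the third quartile, the median as a white line and whiskers from the 10th to the 90th percentile. WT and *Pld6* KO follow each other, *Dnmt3l* KO lies lower, and the middle of the chromosome 2 cluster holds too few calls to plot.

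In *Dnmt3l* KO the methylation level was lower than in WT in all 3 clusters, and the difference was largest on chromosome 2. The pooled level was 0.194 (0.178 to 0.210) in the chromosome 2 cluster, 0.303 (0.296 to 0.311) on chromosome 4 and 0.218 (0.211 to 0.226) on chromosome 13. The flanks of the 3 clusters kept 0.376, 0.372 and 0.307, and the cluster was lower than its flanks by 0.183 on chromosome 2 (interval of the difference −0.199 to −0.165), by 0.0690 on chromosome 4 (−0.0770 to −0.0609) and by 0.0892 on chromosome 13 (−0.0976 to −0.0807). The respective adjusted p-values of the two-sided Fisher's exact tests were 1.19e-76, 1.83e-60 and 4.32e-86. The chromosome 4 difference was not kept among windows of 38% to 42% GC, where it was −0.0131 and not significant by the adjusted two-sided Fisher's exact test. As a ratio to WT, *Dnmt3l* KO kept 0.262 of the WT level in the chromosome 2 cluster, 0.459 on chromosome 4 and 0.367 on chromosome 13, against 0.510, 0.520 and 0.427 in the flanks.

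The decrease itself was compared between cluster and flanks on the calls. On chromosome 2 the decrease from WT to *Dnmt3l* KO was 0.546 in the cluster and 0.361 in the flanks, an excess of 0.185 (95% interval 0.164 to 0.206). Outside soft-masked repeats the excess was 0.0857, and among windows with a GC content of 38% to 42% it was 0.0110 and its interval included 0. On chromosome 13 the decrease was smaller in the cluster (0.377) than in the flanks (0.413), a difference of −0.0359 (−0.0468 to −0.0251), which was −0.00306 with an interval including 0 against the upstream flank alone. On chromosome 4 the decreases were 0.358 and 0.344, with a difference of 0.0135 (0.00377 to 0.0233) that changed sign to −0.0672 in the windows of 38% to 42% GC.

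Window by window, 382 of the 526 (72.6%) were lower in *Dnmt3l* KO by at least 0.3, the decrease the study calls severe, against 86.3% of all windows of the genome. The shares were 85.2% on chromosome 2 (69 of 81), 67.5% on chromosome 4 (135 of 200) and 72.7% on chromosome 13 (178 of 245), all under the genome's share. A window with a WT level under 0.3 cannot fall by 0.3. Of the 431 windows with a WT level of at least 0.5, 370 fell by at least 0.3, 85.8% of them, beside 85.5% of such windows in the flanks and 92.8% in the genome. Without the limit on the WT level, 78.2% of the flank windows fell by at least 0.3. In 3 windows *Dnmt3l* KO was above WT, by at most 0.131.

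Single windows were ranked only where each library had at least 30 calls, and windows with fewer calls reached larger decreases and, on chromosomes 4 and 13, also increases. By that ranking the largest decrease in *Dnmt3l* KO on chromosome 2 was that of chr2:176750001-176760000, between annotated coding genes. Its level was 0.881 in WT (42 calls), 0.90 in *Pld6* KO (40 calls) and 0 in the *Dnmt3l* KO library (39 calls). On chromosome 4 it was chr4:145600001-145610000, which overlaps the KZFP gene *Gm13212*, with 0.930, 0.816 and 0.115. On chromosome 13 it was chr13:67230001-67240000, with 0.857, 0.450 and 0.0635, which was thus low in both KO libraries.

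At the other end of this ranking, the window with the smallest decrease on chromosome 13, chr13:65240001-65250000, was at 0.101 in WT (584 calls), 0.149 in *Pld6* KO and 0.0691 in the *Dnmt3l* KO library. That on chromosome 4, chr4:147940001-147950000, overlaps the gene *2510039O18Rik* and had 0.322, 0.46 and 0.315. On chromosome 2, chr2:177080001-177090000 had 0.582, 0.621 and 0.431, and it directly adjoins the window with the largest decrease in *Pld6* KO. The first of these windows was little methylated in all 3 libraries, while the other two kept intermediate levels in *Dnmt3l* KO.

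In *Pld6* KO the pooled levels of the clusters stayed close to WT, and single windows fell far. The level was 0.680 on chromosome 2 (0.668 to 0.692), 0.667 on chromosome 4 (0.663 to 0.672) and 0.634 on chromosome 13 (0.629 to 0.639). Subtracting *Pld6* KO from WT gave 0.0595 on chromosome 2, −0.00630 on chromosome 4 and −0.0395 on chromosome 13, a negative value meaning a higher level in *Pld6* KO. In the flanks this difference was −0.0253, −0.0258 and −0.0262, and over all windows of the genome −0.0196. The difference on chromosome 2 was thus above that of its flanks, where the level was higher in *Pld6* KO, by 0.0848 (0.0669 to 0.103). It was not even across the cluster: 6 of its 81 windows fell by at least 0.3, while 37.0% of them were higher in *Pld6* KO. The median window fell by 0.0286. The excess was 0.0329 in the windows of 38% to 42% GC and 0.0318 with 1 site per 100 bases. On chromosome 4 the excess was 0.0195 (0.0124 to 0.0266), and its interval included 0 in those 2 settings (0.00573 and 0.00439). On chromosome 13 the difference was −0.0133 (−0.0220 to −0.00463), and 0.00710 with an interval including 0 when the cluster was taken from its first to its last KZFP gene.

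*Pld6* KO was lower than WT by at least 0.3 in 14 of the 526 windows (2.66%), against 1.51% of the windows of the genome and 0.783% of the flank windows. These shares are at unlike depth: the median window held 91.5 WT calls in the clusters, 219 in the flanks and 126 in the genome. *Pld6* KO was higher by at least 0.3 in 3 cluster windows, in none of the flanks and in 242 of the genome. What depth adds to the shares was not tested. The 14 lower windows were 6 of 81 windows on chromosome 2 (7.41%), 3 of 200 on chromosome 4 (1.5%) and 5 of 245 on chromosome 13 (2.04%). The count changed with the window: 27 of 784 windows of 5 kb, and 4 of 314 windows of 20 kb, passed. All 14 windows were methylated in WT at 0.810 or more, and 13 of them were also lower in *Dnmt3l* KO by at least 0.3. That decrease was found in 72.6% of all 526 windows and in 85.8% of those with a WT level of at least 0.5. Both decreases are taken from the same WT library, and a high WT level leaves more room for a fall. They were rich in repeats: the median share of soft-masked bases was 75.4% against 36.9% over all 526 windows, and 10 of the 14 were masked over more than 50% of their bases, as were 129 of the 526.

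**Figure D3:**
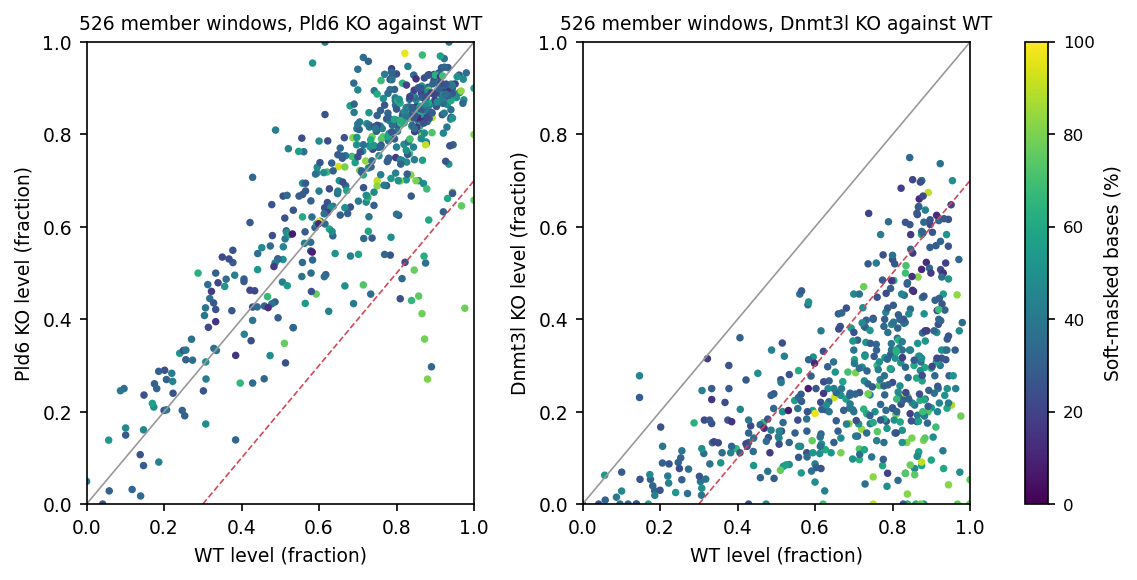
Methylation level (fraction) of the 526 windows in *Pld6* KO (left) and *Dnmt3l* KO (right) against WT, with the colour showing the percentage of soft-masked bases. The grey line marks equal levels and the dashed line a decrease of 0.3. In *Pld6* KO 14 windows lie on or below the dashed line, all with a WT level of at least 0.810, and in *Dnmt3l* KO 382 do.

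The 3 windows with the largest decreases in *Pld6* KO, by the same minimum of 30 calls, were resolved at 1 kb. Of the windows with fewer calls, chr13:67640001-67650000 (0.976 in WT and 0.424 in *Pld6* KO) and chr4:147720001-147730000 (0.872 and 0.357) had larger decreases than the third of these. The first, chr2:177090001-177100000, had 0.880 in WT (100 calls), 0.270 in *Pld6* KO (122 calls) and 0.138 in the *Dnmt3l* KO library (58 calls). Most of its calls came from a single kilobase, 4 to 5 kb into the window, which holds the printed chromosome 2 stretch and was at 0.907, 0.140 and 0.145. In the last kilobase of the same window *Pld6* KO remained at 0.769 against 0.727 in WT, with 13 and 11 calls. The decrease was thus local within the window.

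The second, chr4:147210001-147220000, overlaps the KZFP gene *Zfp978* and had 0.890, 0.297 and 0.175. Its decrease lay in the last kilobase, at 0.90 in WT (70 calls), 0.193 in *Pld6* KO and 0.165 in the *Dnmt3l* KO library (85 calls). This window holds a match to the RLTR4 amplicon of the study's bisulfite PCR, a long terminal repeat of an endogenous retrovirus. The copy itself held no WT or *Pld6* KO call, so its own level was not measured. The third window, chr2:175050001-175060000, overlaps the annotated gene *LOC115489542* and had 0.866, 0.412 and 0.106, with 206 of the 313 *Pld6* KO calls in the kilobase 3 to 4 kb into the window (0.892 in WT and 0.427 in *Pld6* KO).

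Sequence related to the printed chromosome 2 stretch, with at least 80% identity over at least 150 bases, occurred in 10 windows of the 3 clusters, 6 of them among the 526. A search with the most densely called stretch of the third window found the same windows. In *Pld6* KO 3 of the 6 were lower by at least 0.3, and their median decrease was 0.302. Since 2 of these windows had supplied the sequences, this is a description only. Among the 520 other windows 11 were lower by at least 0.3 and the median difference was −0.00903.

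Copies of retrotransposons were located with the sequences of 8 amplicons that the study had used for bisulfite PCR, among them L1Md_A (a LINE element), IAPLTR1_MM (the long terminal repeat of intracisternal A particles) and MT2-MERVL. Counting matches of 90% identity or more that covered 90% or more of an amplicon, the clusters held 25 copies, with few calls. Pooled over them, the level was 0.841 in WT (0.706 to 0.921, 44 calls), 0.643 in *Pld6* KO (0.512 to 0.755, 56 calls) and 0.103 in the *Dnmt3l* KO library (0.0406 to 0.236, 39 calls). With the limits set to 80% there were 69 copies, at 0.863 in WT (256 calls), 0.548 in *Pld6* KO (332 calls) and 0.205 in the *Dnmt3l* KO library (122 calls). The IAPLTR1_MM copies were at 0.895 in *Pld6* KO (19 calls) with the limits of 90%, all 9 WT calls being methylated. With those of 80% they went from 0.879 in WT (0.810 to 0.925, 124 calls) to 0.738 in *Pld6* KO (0.659 to 0.803, 141 calls). At 80% the 7 L1Md_A copies went from 0.936 in WT (47 calls) to 0.269 in *Pld6* KO (104 calls). The 7 RLTR4 copies had all 8 WT calls methylated and 0.0476 in *Pld6* KO (21 calls). The RLTR10C-MMERVK10C copies were at 0.792 in WT (48 calls) and 0.80 in *Pld6* KO (45 calls), and those of RLTRETN_Mm held 1 *Pld6* KO call. The MT2-MERVL copies were at 0.833 in WT (18 calls) and 0.857 in *Pld6* KO (14 calls). In the only RLTR1B-MMERGLN_I copy, which lies in chr13:67640001-67650000, all 3 WT calls were methylated and none of the 6 in *Pld6* KO. With the limits of 90%, the only L1Md_A copy in the clusters had both of its 2 WT calls methylated and a level of 0.20 in *Pld6* KO (10 calls). By the same limits the L1Md_A copies of the flanks had 0.875 in WT (200 calls), 0.151 in *Pld6* KO (259 calls) and 0.0294 in the *Dnmt3l* KO library (102 calls). Soft-masked sites as a whole fell from WT to *Pld6* KO by 0.0903 in the chromosome 2 cluster, 0.0319 on chromosome 4 and 0.0288 on chromosome 13, and by 0.0124, 0.00619 and 0.0399 in the flanks.

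The RefSeq annotation places 109 coding genes in the 3 ranges. Of these, 63 encode at least 3 C2H2 fingers and a KRAB A box, here called KZFP genes (20 on chromosome 2, 18 on chromosome 4 and 25 on chromosome 13), and 18 further genes have the fingers without a match to the KRAB motif used. In 60 of the 63 the last coding exon encodes all the fingers. Within these genes methylation was not uniform: promoters were mostly low and finger exons were high. Promoters, reaching from 2 kb before the gene start to 0.5 kb after it, had a pooled WT level of 0.237 (0.221 to 0.254, 2562 calls), and finger exons 0.880 (0.852 to 0.904, 618 calls). Other exons had 0.877, introns 0.717 and the sequence between genes 0.633 in WT.

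In *Dnmt3l* KO each of these parts was lower. Promoters were at 0.0633 (0.0507 to 0.0787), finger exons at 0.374 (0.321 to 0.429), other exons at 0.299, introns at 0.285 and the sequence between genes at 0.216. In *Pld6* KO promoters had 0.243, finger exons 0.853 (0.830 to 0.874), other exons 0.847 and introns 0.690. Pooled over the clusters, these differed from WT by at most 0.0302 in any of these 4 parts. Promoters had 0.351 in WT and 0.257 in *Pld6* KO on chromosome 2, 0.414 and 0.410 on chromosome 4, and 0.153 and 0.180 on chromosome 13. Other exons of chromosome 4 had 0.861 and 0.796. The Wilson intervals of WT and *Pld6* KO overlapped in each of these cases, but not for introns. Pooled over the clusters, the intron intervals were 0.708 to 0.725 in WT and 0.683 to 0.697 in *Pld6* KO. On chromosome 4 introns had 0.699 (0.689 to 0.709) in WT and 0.663 (0.655 to 0.672) in *Pld6* KO. By cluster, the finger exons had 0.940 in WT on chromosome 13 (366 calls), 0.793 on chromosome 4 (222 calls) and 0.80 on chromosome 2 (30 calls).

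Pooled over the clusters, finger exons were more methylated than those of the 218 KZFP genes elsewhere in the genome, which had 0.709 in WT (0.701 to 0.717) and 0.262 in *Dnmt3l* KO (0.251 to 0.273). The pooled Wilson intervals of the 2 sets did not overlap in either library. This did not hold in each cluster. On chromosome 2 the WT interval was 0.627 to 0.905 (30 calls), and on chromosome 4 the *Dnmt3l* KO interval was 0.212 to 0.382 (107 calls). Chromosome 13 supplied 366 of the 618 WT calls. The last coding exons of the genes of the flanks had 0.673 in WT (0.658 to 0.687). In 9 genes both the promoter and the finger exon held at least 10 calls in each library. The exon was above the promoter in all 9 in each of the 3 libraries, with median exon levels of 0.929 in WT, 0.909 in *Pld6* KO and 0.353 in the *Dnmt3l* KO library and median promoter levels of 0.117, 0.147 and 0.0345.

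**Figure D4:**
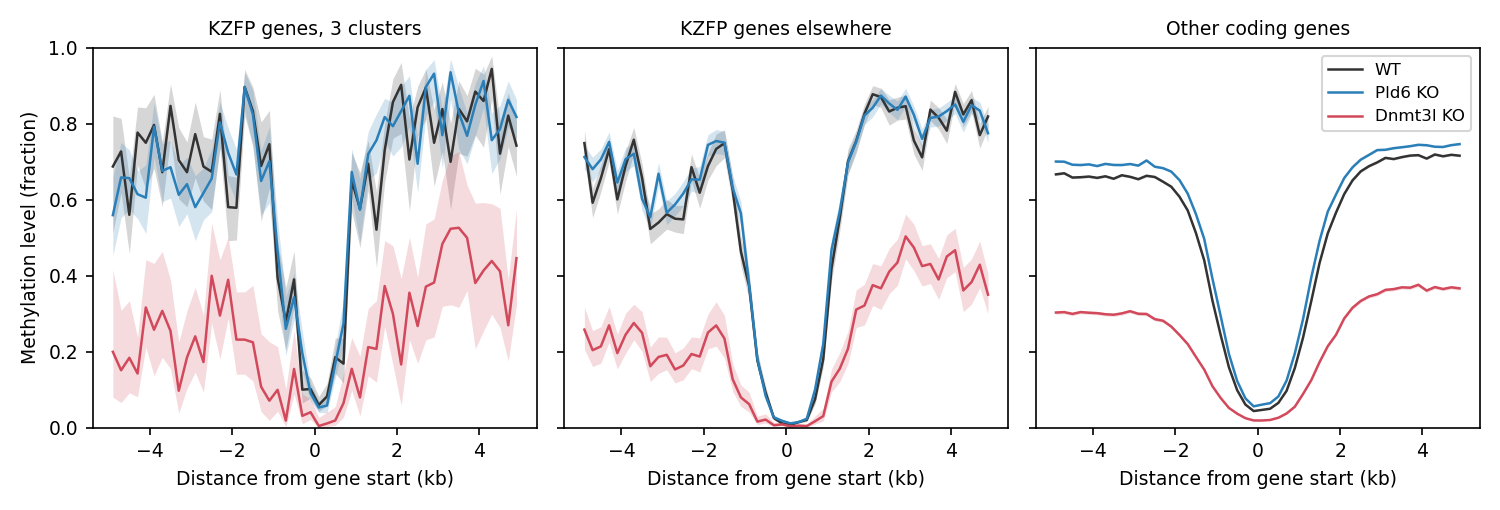
Pooled methylation level (fraction) in bins of 200 bases against the distance in kb from the gene start, for the 63 KZFP genes of the clusters, the 218 KZFP genes elsewhere and all other coding genes, with 95% Wilson intervals as bands. All sets dip at the start, where the first 200 bases of the cluster genes were at 0.0600 in WT.

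The dip at the gene start was shared with other genes. In the first 200 bases after the start, the KZFP genes of the clusters were at 0.0600 in WT, 0.0535 in *Pld6* KO and 0.00490 in the *Dnmt3l* KO library, the KZFP genes elsewhere at 0.00734, 0.0117 and 0.00423, and all other coding genes at 0.0471, 0.0610 and 0.0193. From 2000 to 2200 bases after the start the KZFP genes of the clusters reached 0.902 in WT, 0.833 in *Pld6* KO and 0.167 in the *Dnmt3l* KO library, the last from 18 calls.

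Of the 63 promoters, 33 held at least 10 calls in each library, 4 on chromosome 2, 11 on chromosome 4 and 18 on chromosome 13. No call at all was found in any library for 14 promoters, 13 of them on chromosome 2. The printed start of *Gm4724* is one of these. On chromosome 2, 17 of the 20 KZFP genes had another copy of the 300 bases around the start within the cluster at 98% identity or more, the median of the best match being 100%, and all 13 promoters without a call were among the 17. On chromosome 13 that held for 5 of 25 genes, none of which had 10 calls in each library.

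Promoter levels varied within and between the clusters, and their ranges overlapped. On chromosome 13 all 18 promoters were under 0.4 in WT, with a median of 0.157 and a range from 0 to 0.375. On chromosome 4 the 11 promoters had a median of 0.422 and ranged from 0.0327 to 0.985. The 4 on chromosome 2 had a median of 0.175 and ranged from 0.0588 to 0.882. The promoters of chromosome 4 hold fewer CpG sites, with a median of 17 against 32 among those measured on chromosome 13. Across the 33 promoters the number of CpG sites and the WT level had a Spearman's rho of −0.422, given as a description of promoters that share libraries and duplicated sequence. The 8 promoters with at most 20 CpG sites, a limit chosen after the values were seen, had a median WT level of 0.740 and the other 25 a median of 0.159.

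In *Dnmt3l* KO 7 of the 33 promoters (21.2%) were lower by at least 0.3, close to the 20.6% of all promoters of the genome. They were 6 of the 11 on chromosome 4 (54.5%), 1 of the 4 on chromosome 2 and none of the 18 on chromosome 13. In *Pld6* KO none of the 33 was lower or higher by 0.3, and 0.288% of all promoters were lower. The median *Dnmt3l* KO level of the 33 was 0.0455, and 32 of the 33 were under 0.4.

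**Figure D5:**
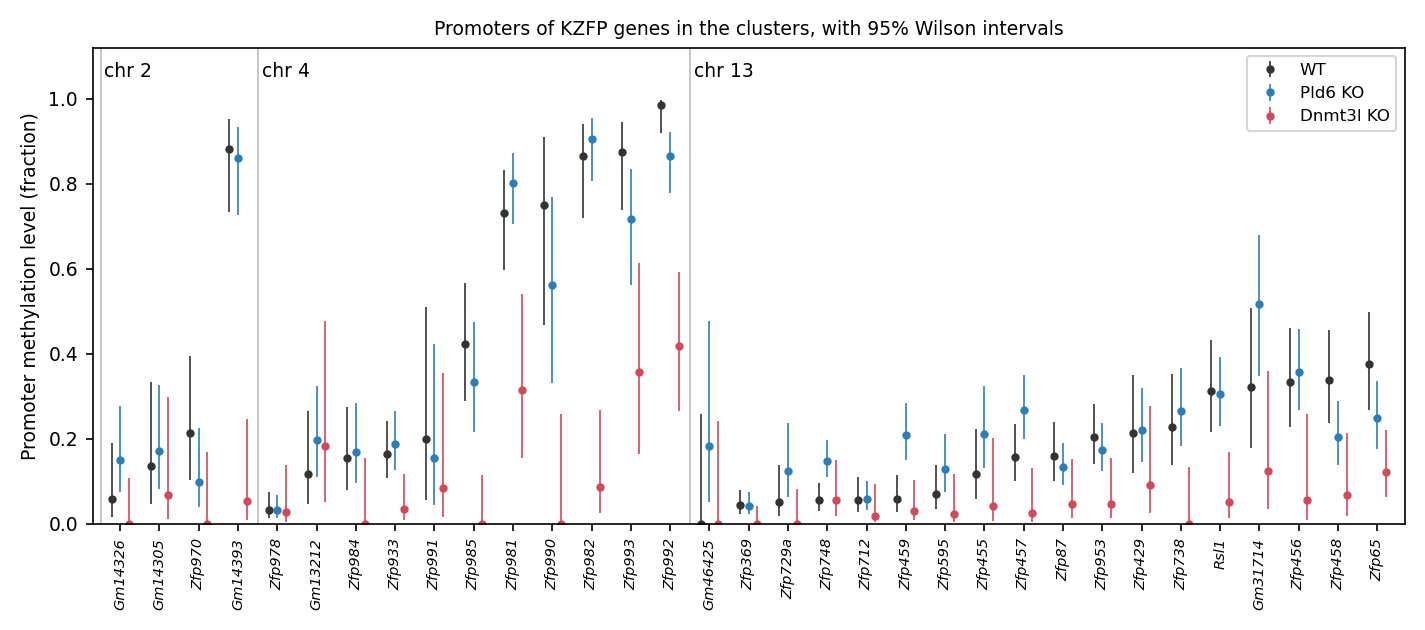
Methylation level (fraction) of the 33 KZFP promoters with at least 10 calls in each library, ordered by WT level within each cluster, with 95% Wilson intervals as bars. The promoters of chromosome 13 lie at or below 0.375 in WT, and 6 of the 11 on chromosome 4 are lower by at least 0.3 in *Dnmt3l* KO.

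Among promoters with at least 20 calls in each library, the 3 with the largest decreases in *Dnmt3l* KO all lay on chromosome 4. With fewer calls, *Gm14393* on chromosome 2 had the largest decrease of the 33 promoters, 0.830 (19 *Dnmt3l* KO calls). *Zfp990* on chromosome 4 fell by 0.75 (11 *Dnmt3l* KO calls). By the minimum of 20 calls, *Zfp982* fell from 0.865 in WT (0.720 to 0.941, 37 calls) to 0.0870 (0.0242 to 0.268, 23 calls) and was at 0.905 in *Pld6* KO. *Zfp992* fell from 0.985 (0.919 to 0.997, 66 calls) to 0.419 (0.264 to 0.592, 31 calls), with 0.865 in *Pld6* KO. *Zfp985* fell from 0.422 (45 calls) to 0 (0 to 0.114, 30 calls), with 0.333 in *Pld6* KO. None of the intervals of WT and *Dnmt3l* KO overlapped for *Zfp982*, *Zfp992* and *Zfp985*. By the same minimum, the smallest differences were those of *Zfp748* (0.0550 in WT, 0.147 in *Pld6* KO and 0.0556 in the *Dnmt3l* KO library), *Zfp978* (0.0327, 0.0313 and 0.0270) and *Zfp459* (0.0583, 0.210 and 0.0299), all of them promoters that were little methylated in WT.

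In *Pld6* KO the promoter differences were smaller. Among promoters with at least 20 calls in each library, the largest decreases were those of *Zfp458*, from 0.338 to 0.204, of *Zfp65*, from 0.375 to 0.248, and of *Zfp992*, and the Wilson intervals of WT and *Pld6* KO overlapped for each of these 3. In the opposite direction *Zfp459* went from 0.0583 (0.0285 to 0.116) to 0.210 (0.151 to 0.284), *Zfp457* from 0.156 to 0.268 and *Zfp455* from 0.117 to 0.212, and of these 3 only the intervals of *Zfp459* did not overlap. With fewer calls, *Zfp990* (0.75 in WT and 0.562 in *Pld6* KO) and *Zfp993* (0.875 and 0.718) had larger decreases than *Zfp458*. Of the 33 promoters 19 were higher in *Pld6* KO than in WT, beside 11729 of 18757 promoters of all coding genes.

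The most densely called promoters of each cluster gave the same range. On chromosome 13 *Zfp369* was at 0.0431 in WT (209 calls), 0.0428 in *Pld6* KO and 0 in the *Dnmt3l* KO library (90 calls), *Zfp712* was at 0.0551, 0.0582 and 0.0179, and *Zfp953* was at 0.203, 0.173 and 0.0465. On chromosome 4 *Zfp933* was at 0.164, 0.186 and 0.0345 and *Zfp981* at 0.731, 0.802 and 0.316. On chromosome 2 *Gm14393* was at 0.882 (34 calls), 0.860 and 0.0526, which makes it the chromosome 2 promoter that fell by over 0.3. *Gm14326*, with 0.0588, 0.149 and 0, and *Zfp970*, with 0.214, 0.0976 and 0, were low in every library. *Gm14325* had 0.462 in WT (26 calls), 0.109 in *Pld6* KO (46 calls) and 0.111 in the *Dnmt3l* KO library (9 calls), and so fell short of the minimum in the last. It is therefore not among the 33 promoters, although it was lower in *Pld6* KO by 0.353. Its Wilson intervals in WT (0.288 to 0.645) and *Pld6* KO (0.0473 to 0.230) did not overlap.

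*Rsl1* and *Rslcan18*, named for the regulation of sex-limited liver genes, lie in the chromosome 13 cluster. The *Rsl1* promoter was at 0.313 in WT (67 calls), 0.306 in *Pld6* KO (121 calls) and 0.0513 in the *Dnmt3l* KO library (39 calls). That of *Rslcan18*, which did not match the KRAB motif used, had all 14 WT calls methylated, 0.80 in *Pld6* KO (45 calls) and 0.545 in the *Dnmt3l* KO library (11 calls). The promoter of *Zfp600* held 2 WT calls and that of *Rex2* none, so neither could be described at this depth.

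The genes with which KZFPs work lie outside the clusters, and their promoters were mostly unmethylated. Those of *Trim28*, *Cbx3*, *Cbx5*, *Daxx*, *Uhrf1*, *Cbx1*, *Dnmt1* and *Atrx* had WT levels from 0.00530 to 0.10. *Setdb1* had 0.404 in WT (57 calls), 0.522 in *Pld6* KO and 0.0488 in the *Dnmt3l* KO library, and *Atf7ip*, whose product stabilises SETDB1, had 0.319, 0.143 and 0.132. Of these 10 promoters 1, that of *Setdb1*, was lower by at least 0.3 in *Dnmt3l* KO, beside 20.6% of all promoters of the genome. None was lower by as much in *Pld6* KO, beside 0.288% of all promoters.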

How the data were processed

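The authors prepared libraries by post-bisulfite adaptor tagging from sorted cells, sequenced single reads of 100 bases, trimmed the first 6 and the last 15 bases and stretches of low quality, and mapped uniquely with Bismark to mm10. Removal of duplicate reads is not given in the sources used here. The authors deposited, for each CpG site, counts of methylated and of unmethylated calls. A further deposited column, the fraction, equalled methylated over all calls within rounding. The study describes several animals per genotype, and 1 library each was analysed here. The libraries held 43757722 calls (WT), 64076569 (*Pld6* KO) and 19289688 (*Dnmt3l* KO).

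Levels were pooled over calls. Cluster and flank windows of 1 library were compared by two-sided Fisher's exact tests with Benjamini-Hochberg adjustment over 9 tests and Newcombe intervals (scipy 1.17.1, statsmodels 0.14.6). The difference of 2 decreases has an interval from the binomial variances of its 4 levels, and the procedures were tested on simulated data. No test between genotypes was made. Genes came from RefSeq for GRCm38.p6, with 1 transcript each and proteins translated from the coding sequence. Fingers and the KRAB A box were found by sequence pattern. Start sequences were found for 56 of the 63 KZFP genes. Copies of retrotransposons were located with blastn 2.17.0, using the amplicon sequences with converted bases put back, of which RLTR1B-MMERGLN_I was used with 399 bases.

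The named genes were the 4 KZFP promoters of each cluster with the most WT calls, the 3 largest and 3 smallest promoter differences per KO (at least 20 calls in each library), a short list of known genes, the co-repressor genes and the extreme windows (at least 30 calls in each library). The windows, gene lists and rules were chosen with earlier results of these data known. Alternatives changed the minimum of calls, the window, the flanks, the sites used, the GC range and the size of decrease.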

Additional observations from a re-analysis of the deposited data

How the results depend on the processing

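Of 243 values recomputed under other settings, 210 kept their direction and their side of the threshold, or stayed within the limits set for a count. The level of the chromosome 2 cluster minus that of its flanks in WT (0.00241) was 0.0316 with at least 50 calls per window and −0.0517 with 1 site in each 100 bases. It was −0.0945 outside soft-masked repeats and −0.125 in windows of 38% to 42% GC. In these GC windows that of chromosome 4 in *Dnmt3l* KO was −0.0131 and not significant by the adjusted two-sided Fisher's exact test. For the decrease in the cluster minus that in the flanks, the chromosome 4 difference in *Dnmt3l* KO (0.0135) was −0.00577 without sites over 10 calls, −0.00686 outside soft-masked repeats, 0.00924 as a mean of site levels, −0.0672 in the GC range and −0.0354 against the upstream flank. In *Pld6* KO it was 0.00439 with 1 site in each 100 bases and 0.00573 in the GC range. The chromosome 13 difference in *Dnmt3l* KO was −0.00666 with 1 site in each 100 bases and −0.00306 against the upstream flank, and in *Pld6* KO it was −0.0118 as a mean of site levels, 0.00710 from the first to the last KZFP gene and −0.00910 against the downstream flank. That of chromosome 2 in *Dnmt3l* KO was 0.0110 in the GC range.

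The count of windows lower by 0.3 in *Pld6* KO (14) was 9 of 412 with at least 20 calls, 6 of 246 with at least 50, 27 of 784 at 5 kb, 4 of 314 at 20 kb, 8 of 487 with 1 site in each 100 bases, 8 of 441 outside soft-masked repeats, and 29 or 6 of 526 for a decrease of 0.2 or 0.4. In *Dnmt3l* KO (382) it was 168 of 246 with at least 50 calls and 247 of 314 at 20 kb. For KZFP promoters in *Dnmt3l* KO (7 of 33) it was 4 of 27 within 0.5 kb of the start, 3 of 22 with at least 20 calls, 11 of 41 with at least 5, and 13 of 33 for a decrease of 0.2, and in *Pld6* KO it was 1 of 41 with at least 5 calls. Fewer windows or promoters were counted under the higher minimums, and otherwise the cause was not tested. No paired analysis was possible because each genotype has 1 library. The depth of *Dnmt3l* KO, the shallowest library, and of the duplicated sequence limits what could be measured.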

Other observations

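The ranges also hold genes that are not KZFP genes by the definition used. Of the 18 genes with fingers but no match to the KRAB motif, 12 promoters held at least 10 calls in each library, with median levels of 0.172 in WT, 0.366 in *Pld6* KO and 0.0682 in the *Dnmt3l* KO library, and 4 of the 12 were lower in *Dnmt3l* KO by at least 0.3. Of the 28 other coding genes 21 passed, with medians of 0.159, 0.182 and 0.0377, and 3 of the 21 were lower by at least 0.3. These are 33.3% and 14.3% of the measured promoters, beside 20.6% of all promoters of the genome. Taken promoter by promoter, the median of WT minus *Pld6* KO over the 12 was −0.0410. Of the 12, 9 were higher in *Pld6* KO, none of them by 0.3 or more.

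Pooled over calls, the promoters of the genes in the clusters that are not KZFP genes were at 0.185 in WT (0.173 to 0.198) and 0.276 in *Pld6* KO (0.263 to 0.290), and those of the flank genes at 0.160 and 0.192. The last coding exons of these cluster genes were at 0.902 in WT, 0.90 in *Pld6* KO and 0.372 in the *Dnmt3l* KO library, close to the finger exons of the KZFP genes.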
